A study of Mus musculus with 12 samples.

Results

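The genes described here make bile acids in the liver or hold that synthesis in check through the bile acid receptor FXR. There are 10 of them, taken by name among 18193 genes measured: Cyp7a1, Cyp8b1, Cyp27a1, Cyp7b1, Cyp39a1, Acox2, Slc27a5, Baat, Nr1h4 and Nr0b2. All 10 were on the array, in 15 of its 45101 probe sets. They were followed in livers of male mice that had received CDDO-Im or vehicle by gavage, on 12 Affymetrix arrays of total liver RNA. The groups, with 3 arrays each, were Nrf2 null mice given CDDO-Im at a dose labelled 30 uM/kg, Nrf2 null mice given vehicle, wild type mice given the same CDDO-Im dose, and wild type mice given vehicle. The time label of all groups is 6 hours. The null allele, strain, age and vehicle are not given in the sources used here. Nothing in them ties an array to its own animal, and the p-values then cover only how far these samples spread, which may be technical. Every vehicle title, and no CDDO-Im title, carries an unexplained digit 2 in brackets. Whatever that stands for and the treatment cannot be told apart.

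Bile acids are made from cholesterol in hepatocytes, and their synthesis is the main route by which the body disposes of cholesterol. The classic route starts with Cyp7a1, and the alternative route starts with Cyp27a1 and runs on through Cyp7b1. The side chain is then shortened in the peroxisome, and the acid is joined to taurine or glycine before it is secreted into bile. Bile acids that return to the liver bind FXR, which induces the repressor SHP, and in the gut FXR induces Fgf15, whose signal reaches the hepatocyte through Fgfr4 and Klb. Both arms lower Cyp7a1 and Cyp8b1. Nrf2 is a transcription factor that induces detoxification and export genes. CDDO-Im, the imidazolide of the synthetic triterpenoid CDDO, activates it by modifying its inhibitor Keap1.

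Values are log2 intensities as deposited, so a difference of 1 is a doubling of signal on this scale. Levels of different probe sets are not compared with each other. Nfe2l2, which encodes Nrf2, read 4.89 ± 0.10 in Nrf2 null CDDO-Im livers, 4.71 ± 0.24 in Nrf2 null vehicle livers, 8.73 ± 0.39 in wild type CDDO-Im livers and 8.60 ± 0.09 in wild type vehicle livers (SD, n = 3 each). On all 12 arrays that probe set went with the genotype label. Whether it lies inside the deleted part is not given in the sources used here. Of 10 listed hepatocyte markers 8 were measured, and 7 lay above the array median on all 12 arrays, with Alb at 14.19 to 14.36. The other one, Ass1, read 4.13 to 4.41 and lay below the median on all 12. Whether that Ass1 probe set detects the transcript was not tested. In a tissue sample, fewer cells of a type and less RNA per cell cannot be told apart.

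Wild type vehicle replicate 3 and Nrf2 null vehicle replicate 2 stood apart from the rest. In wild type vehicle replicate 3 the 11 measured pancreatic acinar markers, such as Cela2a, Cpa1 and Ctrb1, lay at a median of 3.37 log2 above their own means, and in Nrf2 null vehicle replicate 2 at 1.74 above. On the other 10 arrays that median was between -0.65 and -0.39. The summed signal of the acinar list, in log2, was 10.43 to 10.57 in Nrf2 null CDDO-Im livers, 10.30 to 12.52 in Nrf2 null vehicle livers, 10.03 to 10.26 in wild type CDDO-Im livers and 10.04 to 14.10 in wild type vehicle livers. Wild type vehicle replicate 3 also had the lowest mean correlation with its own group, 0.983, against 0.989 to 0.994 for the other arrays. Its levels of Cyp7a1 and Cyp8b1, given below, lay within the range of wild type CDDO-Im livers. Its Cyp27a1, at 11.44, lay between the other wild type vehicle livers and the treated ones, and its Cyp7b1, at 12.78, above both. The part of pancreatic RNA in these results was not tested. Wherever leaving this array out changed the call of a gene named below, the value without it is given too.

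Under CDDO-Im, Cyp27a1 was the gene of the set that rose in both genotypes. In Nrf2 null livers Slc27a5 also rose and Acox2 fell, while in wild type livers no other member passed the test. The test was limma's moderated test on all 12 arrays, with Benjamini-Hochberg adjustment over all genes and a threshold of 0.05. In Nrf2 null livers it called 2 members higher and 1 lower of 10, where 5.90% of all genes were called, 3.58% higher and 2.32% lower. For wild type livers it called 1 member, higher, against 1.82% of all genes, 0.978% higher. The median difference of the members was 0.32 in Nrf2 null livers and 0.19 in wild type livers, beside -0.005 and 0.006 over all genes. Both treatment comparisons use different arrays but share 1 estimate of spread. Without wild type vehicle replicate 3 the members called numbered 5 of 10 in Nrf2 null livers, where the background was 8.88%, and 3 of 10 in wild type livers, where it was 7.61%. The genes added were Cyp7a1 and Cyp8b1, in both genotypes.

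**Figure D1:**
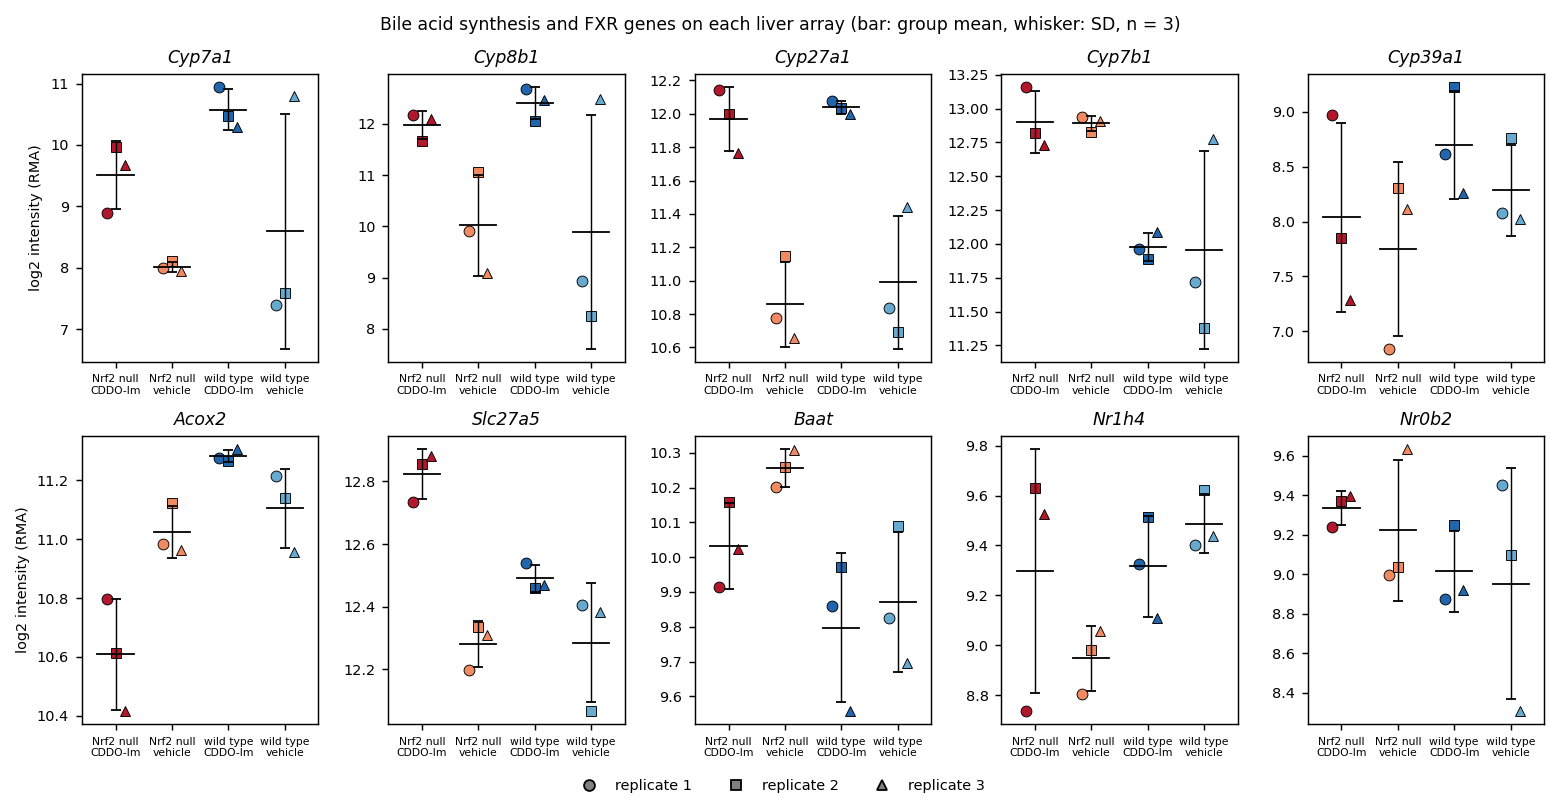
Log2 intensity of the main probe set of each member (vertical axis, its own scale in each panel) on every array, by group from left to right: Nrf2 null CDDO-Im, Nrf2 null vehicle, wild type CDDO-Im, wild type vehicle. Symbols are replicates, bars group means and whiskers SD with n = 3. For Cyp7a1, Cyp8b1 and Cyp7b1 the triangle in the wild type vehicle group, replicate 3, lies far above the other replicates of that group.

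Cyp7a1 encodes the rate-limiting enzyme of the classic route, cholesterol 7-alpha-hydroxylase. In Nrf2 null livers it read 8.89, 9.96 and 9.67 under CDDO-Im, against 7.99, 8.10 and 7.95 under vehicle. Every treated Nrf2 null liver lay above every untreated one. Its wild type values were 10.94, 10.47 and 10.30 under CDDO-Im, against 7.39, 7.59 and 10.80 under vehicle. Replicate 3 of the wild type vehicle group lay inside the CDDO-Im range, and the remaining pair lay far below it. The difference was 1.49 ± 0.68 log2 in Nrf2 null livers (SE, limma adjusted p = 0.257) and 1.97 ± 0.68 in wild type livers (adjusted p = 0.196), so neither passed with all arrays. The 95% confidence interval was 0.00 to 2.98 in Nrf2 null livers and 0.49 to 3.46 in wild type livers. Without wild type vehicle replicate 3 the difference in wild type livers was 3.08 ± 0.26, an 8.44-fold higher signal (limma adjusted p = 1.88e-05). The difference in Nrf2 null livers then kept its size, 2.81-fold, and passed (adjusted p = 0.00197), since that array also sets the shared spread. It also passed when only the groups compared were fitted, at 1.49 ± 0.23 (limma adjusted p = 0.00789). With array weights the wild type difference was 2.83 ± 0.50 and passed (limma adjusted p = 0.00372). A second Cyp7a1 probe set read 7.45, 8.40 and 8.15 in Nrf2 null CDDO-Im livers and 5.58, 5.72 and 5.80 in Nrf2 null vehicle livers. On it, wild type arrays gave 9.62, 9.18 and 9.28 under CDDO-Im, against 5.18, 5.32 and 9.38 under vehicle. Both probe sets thus placed replicate 3 apart from its group.

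Between genotypes, Cyp7a1 differed by -1.06 ± 0.68 log2 under CDDO-Im, Nrf2 null minus wild type, with every Nrf2 null liver below every wild type liver. That difference did not pass with all arrays (limma adjusted p = 0.658), and it passed without wild type vehicle replicate 3 (adjusted p = 0.0338). With Nrf2 null vehicle replicate 2 left out as well, it missed the threshold again (adjusted p = 0.0503). Under vehicle the difference was -0.58 ± 0.68 (adjusted p = 0.772) and turned to 0.52 ± 0.26 without wild type vehicle replicate 3 (adjusted p = 0.368). The direction of the Cyp7a1 difference between untreated genotypes therefore rested on 1 array.

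Cyp8b1 is the sterol 12-alpha-hydroxylase that directs synthesis towards cholic acid. Nrf2 null livers read 12.16, 11.67 and 12.09 under CDDO-Im, against 9.92, 11.06 and 9.09 under vehicle, again without overlap. Readings in wild type livers were 12.68, 12.06 and 12.47 under CDDO-Im, against 8.92, 8.25 and 12.49 under vehicle, and replicate 3 of the vehicle group was once more at the treated level. The other array with acinar transcripts, Nrf2 null vehicle replicate 2, was the highest of its group for Cyp8b1. Differences were 1.96 ± 0.85 log2 in Nrf2 null livers (limma adjusted p = 0.228) and 2.52 ± 0.85 in wild type livers (adjusted p = 0.181). When only the groups compared were fitted, the Nrf2 null difference was 1.96 ± 0.41 and passed (limma adjusted p = 0.0271). With array weights the wild type difference was 3.33 ± 0.61 and passed (limma adjusted p = 0.00447). Without wild type vehicle replicate 3 the wild type difference was 3.82 ± 0.43, 14.1-fold (adjusted p = 0.000181), and the Nrf2 null difference passed at 3.88-fold (adjusted p = 0.00784). Without both arrays that carried acinar transcripts the Nrf2 null difference was 2.47 ± 0.28, 5.55-fold (adjusted p = 0.000487). Between treated genotypes Cyp8b1 differed by -0.43 ± 0.85, with overlapping groups (adjusted p = 0.939). Under vehicle it differed by 0.13 ± 0.85 (adjusted p = 0.967), and by 1.43 ± 0.43 without wild type vehicle replicate 3 (adjusted p = 0.135).

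Cyp27a1, a mitochondrial sterol hydroxylase, opens the alternative route and also oxidises the side chain in the classic one. In Nrf2 null livers it read 12.14, 11.999 and 11.76 under CDDO-Im, against 10.78, 11.15 and 10.65 under vehicle. Its wild type values were 12.08, 12.03 and 12.001 under CDDO-Im, against 10.84, 10.69 and 11.44 under vehicle. Treated and untreated livers did not overlap in either genotype, and replicate 3 was again the highest of the wild type vehicle group. Cyp27a1 rose by 1.11 ± 0.18 log2 in Nrf2 null livers, 2.16-fold (limma adjusted p = 0.00996), and by 1.05 ± 0.18 in wild type livers, 2.07-fold (adjusted p = 0.0132). The call in Nrf2 null livers held in all 12 refits that left out 1 array. The call in wild type livers was lost without wild type CDDO-Im replicate 2 (adjusted p = 0.0553), wild type vehicle replicate 1 (adjusted p = 0.0822) or wild type vehicle replicate 2 (adjusted p = 0.0631), and when only the groups compared were fitted (adjusted p = 0.0698). Leaving out wild type vehicle replicate 3 gave 1.27 ± 0.14 in wild type livers (adjusted p = 0.000164). Between genotypes Cyp27a1 differed by -0.07 ± 0.18 under CDDO-Im, with an interval of -0.46 to 0.32, and by -0.13 ± 0.18 under vehicle, which became 0.09 ± 0.14 without that replicate (adjusted p = 0.798). A second Cyp27a1 probe set lay below the array median on every array and gave no measure of the gene.

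Promoter sequences of these genes were read from RefSeq's mouse assembly GRCm38.p6, in which 5 of the 10 members matched: Cyp8b1, Cyp27a1, Acox2, Nr1h4 and Nr0b2. Among them are Cyp27a1 and Acox2, which were called under CDDO-Im, and Nr1h4 and Nr0b2 of the FXR loop. Slc27a5, also called, is among the members without an entry. Each run is the 250 bases before the transcription start, read 5′ to 3′ on the gene's strand, with motif matches in capitals. The motifs searched on both strands were the FXR inverted repeat (AGGTCA, 1 base, TGACCT), the LRH-1 sites TCAAGGTCA and TCAAGGCCA, the HNF4 element CAAAGTCCA, the Nrf2-Maf core TGACNNNGC, the E-box CACGTG and the D-box TTANNTAA. In Cyp8b1 (chr9:121916306-121916555, minus strand) the capitals mark, first, the Nrf2-Maf core on the opposite strand at -151 to -143 from the start and, second, the HNF4 element at -67 to -59. In Cyp27a1 (chr1:74713285-74713534, plus strand) none of the 7 motifs was found.
Cyp8b1: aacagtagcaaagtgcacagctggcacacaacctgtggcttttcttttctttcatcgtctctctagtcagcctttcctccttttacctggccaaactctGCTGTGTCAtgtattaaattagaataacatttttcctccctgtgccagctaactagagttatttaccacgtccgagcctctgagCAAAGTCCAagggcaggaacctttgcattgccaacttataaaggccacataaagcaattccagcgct
Cyp27a1: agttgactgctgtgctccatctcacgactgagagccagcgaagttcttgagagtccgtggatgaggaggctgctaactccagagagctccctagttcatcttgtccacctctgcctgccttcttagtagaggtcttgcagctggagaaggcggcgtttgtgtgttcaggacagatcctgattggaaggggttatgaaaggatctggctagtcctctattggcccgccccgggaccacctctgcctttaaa
Among 32851 mouse promoters of this length, 0.384% held the HNF4 element and 10.2% the Nrf2-Maf core. These matches describe letters in a window and are not evidence of binding.

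Cyp7b1, the oxysterol 7-alpha-hydroxylase that follows Cyp27a1 in the alternative route, was called higher in Nrf2 null livers in some settings and was called for CDDO-Im in none. It read 13.16, 12.82 and 12.73 in Nrf2 null CDDO-Im livers and 12.94, 12.83 and 12.91 in Nrf2 null vehicle livers. Wild type arrays gave 11.96, 11.89 and 12.09 under CDDO-Im, against 11.72, 11.38 and 12.78 under vehicle. Every Nrf2 null liver lay above every wild type liver under the same treatment, though wild type vehicle replicate 3 came close. The difference between Nrf2 null and wild type livers was 0.92 ± 0.27 log2 under CDDO-Im (limma adjusted p = 0.143) and 0.93 ± 0.27 under vehicle (adjusted p = 0.161). Neither passed in the main fit of all 12 arrays. Both passed without wild type vehicle replicate 3, at 0.92 ± 0.12 under CDDO-Im (adjusted p = 0.00138) and 1.34 ± 0.13 under vehicle (adjusted p = 0.000666). Those are 1.89-fold and 2.54-fold higher signals in Nrf2 null livers. The difference under CDDO-Im also passed when only the groups compared were fitted (limma adjusted p = 0.0074). That under vehicle passed with array weights, at 1.13 ± 0.18 (limma adjusted p = 0.00781). A second Cyp7b1 probe set read 13.08, 12.81 and 12.74 in Nrf2 null CDDO-Im livers, 12.81, 12.85 and 12.81 in Nrf2 null vehicle livers, 12.02, 11.66 and 11.95 in wild type CDDO-Im livers, and 11.37, 11.13 and 12.77 in wild type vehicle livers. On it too the genotypes did not overlap under either treatment, with wild type vehicle replicate 3 just below the Nrf2 null vehicle livers. The compound's own difference was 0.01 ± 0.27 in Nrf2 null livers, with an interval of -0.57 to 0.59, and 0.02 ± 0.27 in wild type livers, with an interval of -0.56 to 0.60. The wild type value was 0.43 ± 0.13 when that array was left out (limma adjusted p = 0.0802).

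Cyp39a1, an oxysterol 7-alpha-hydroxylase that prefers 24-hydroxycholesterol, scattered widely within groups. It read 8.98, 7.85 and 7.28 in Nrf2 null CDDO-Im livers and 6.84, 8.30 and 8.11 in Nrf2 null vehicle livers. Readings in wild type livers were 8.61, 9.23 and 8.26 under CDDO-Im, against 8.08, 8.76 and 8.02 under vehicle. No pair of groups was separated. The difference under CDDO-Im was 0.29 ± 0.45 log2 in Nrf2 null livers and 0.41 ± 0.45 in wild type livers (limma adjusted p = 0.811 and 0.8), and the difference between genotypes was -0.66 ± 0.45 under CDDO-Im and -0.53 ± 0.45 under vehicle (adjusted p = 0.691 and 0.672). The interval of the CDDO-Im difference ran from -0.70 to 1.27 in Nrf2 null livers and from -0.57 to 1.40 in wild type livers.

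Acox2, the peroxisomal branched-chain acyl-CoA oxidase that begins shortening of the bile acid side chain, was lower after CDDO-Im in Nrf2 null livers. It read 10.80, 10.61 and 10.42 in Nrf2 null CDDO-Im livers and 10.98, 11.12 and 10.96 in Nrf2 null vehicle livers. It read 11.28, 11.27 and 11.31 in wild type CDDO-Im livers, against 11.22, 11.14 and 10.96 in wild type vehicle livers. All treated Nrf2 null livers were below all untreated ones, while all treated wild type livers were above all untreated ones. The wild type gap was narrow, from 11.22 in the highest untreated liver to 11.27 in the lowest treated one. Acox2 fell by 0.42 ± 0.10 log2 under CDDO-Im in Nrf2 null livers (limma adjusted p = 0.0336), and in wild type livers the difference was 0.18 ± 0.10 (adjusted p = 0.498). Under CDDO-Im it was lower in Nrf2 null than in wild type livers by 1.60-fold, a log2 difference of -0.67 ± 0.10 (adjusted p = 0.00484), and this call held in all 12 refits that left out 1 array. Under vehicle the genotypes differed by -0.08 ± 0.10 (adjusted p = 0.786). The test of the 2 treatment effects against each other gave -0.59 ± 0.14, Nrf2 null minus wild type (limma adjusted p = 0.242), which did not pass. The call in Nrf2 null livers was lost without Nrf2 null CDDO-Im replicate 2 (adjusted p = 0.0917) or 3 (adjusted p = 0.132), or without Nrf2 null vehicle replicate 1 (adjusted p = 0.0876) or 2 (adjusted p = 0.116). It was also lost without both arrays that carried acinar transcripts (adjusted p = 0.0703), when only the groups compared were fitted (adjusted p = 0.0615) and when the variance prior followed intensity (adjusted p = 0.0537).

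In the Acox2 promoter (chr14:8259020-8259269, minus strand) the capitals mark the Nrf2-Maf core on the opposite strand at -13 to -5. The promoter is shown because Acox2 was the member that differed between treated genotypes.
Acox2: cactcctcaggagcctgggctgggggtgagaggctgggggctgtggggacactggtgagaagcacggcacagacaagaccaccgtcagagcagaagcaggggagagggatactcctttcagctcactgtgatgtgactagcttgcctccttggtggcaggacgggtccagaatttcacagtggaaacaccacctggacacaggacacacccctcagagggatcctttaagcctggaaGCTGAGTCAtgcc
A second Acox2 promoter of the table, which overlaps the first, held the same match at -193 to -185.

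Slc27a5 encodes the bile acyl-CoA synthetase BACS, which activates bile acids for conjugation. It read 12.73, 12.86 and 12.88 in Nrf2 null CDDO-Im livers and 12.20, 12.33 and 12.31 in Nrf2 null vehicle livers. Its wild type values were 12.54, 12.46 and 12.47 under CDDO-Im, against 12.41, 12.07 and 12.38 under vehicle. Treated livers lay above untreated ones without overlap in both genotypes, but the gap was narrow in wild type livers. Slc27a5 rose by 0.54 ± 0.09 log2 in Nrf2 null livers, 1.46-fold (limma adjusted p = 0.011), and differed by 0.20 ± 0.09 in wild type livers (adjusted p = 0.357). The effects differed by 0.34 ± 0.13 between genotypes (limma adjusted p = 0.611), so a difference in response was not established. Between treated genotypes the difference was 0.33 ± 0.09, Nrf2 null minus wild type (adjusted p = 0.126). The call in Nrf2 null livers was lost only without Nrf2 null CDDO-Im replicate 3 among the 12 refits (adjusted p = 0.0546).

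Baat joins the activated bile acid to taurine or glycine. It read 9.91, 10.16 and 10.02 in Nrf2 null CDDO-Im livers and 10.20, 10.26 and 10.31 in Nrf2 null vehicle livers. Wild type arrays gave 9.86, 9.97 and 9.56 under CDDO-Im, against 9.83, 10.09 and 9.69 under vehicle. All treated Nrf2 null livers were below the untreated ones, and untreated Nrf2 null livers were above untreated wild type livers. The difference under CDDO-Im was -0.22 ± 0.12 log2 in Nrf2 null livers (limma adjusted p = 0.357) and -0.07 ± 0.12 in wild type livers (adjusted p = 0.888). Between genotypes it was 0.23 ± 0.12 under CDDO-Im (adjusted p = 0.528) and 0.39 ± 0.12 under vehicle (limma adjusted p = 0.198). A second Baat probe set averaged 8.67 ± 0.06 in Nrf2 null CDDO-Im livers, 8.78 ± 0.08 in Nrf2 null vehicle livers, 8.50 ± 0.12 in wild type CDDO-Im livers and 8.52 ± 0.25 in wild type vehicle livers (SD, n = 3 each). On it, treated and untreated Nrf2 null livers overlapped, and so did the vehicle groups of the genotypes.

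Nr1h4 encodes FXR itself. Nrf2 null livers read 8.74, 9.63 and 9.53 under CDDO-Im, against 8.80, 8.98 and 9.06 under vehicle. Readings in wild type livers were 9.33, 9.51 and 9.11 under CDDO-Im, against 9.40, 9.62 and 9.44 under vehicle. Nrf2 null CDDO-Im replicate 1 stood below the other treated Nrf2 null livers. The difference under CDDO-Im was 0.35 ± 0.19 log2 in Nrf2 null livers (limma adjusted p = 0.372), and without that array it was 0.63 and passed (adjusted p = 0.0203). In wild type livers the difference was -0.17 ± 0.19 (adjusted p = 0.812). Untreated Nrf2 null livers all lay below untreated wild type livers, by -0.54 ± 0.19 (limma adjusted p = 0.258), which did not pass. Under CDDO-Im the genotypes differed by -0.02 ± 0.19 (adjusted p = 0.993).

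Nr0b2 encodes SHP, the repressor that FXR induces and that lowers Cyp7a1 and Cyp8b1. It read 9.24, 9.37 and 9.40 in Nrf2 null CDDO-Im livers and 8.997, 9.03 and 9.63 in Nrf2 null vehicle livers. Its wild type values were 8.87, 9.25 and 8.92 under CDDO-Im, against 9.45, 9.09 and 8.31 under vehicle. No pair of groups was separated, and wild type vehicle replicate 3 was the lowest of all 12 arrays. The difference under CDDO-Im was 0.11 ± 0.25 log2 in Nrf2 null livers, with an interval of -0.43 to 0.65 (limma adjusted p = 0.867). In wild type livers it was 0.06 ± 0.25 (adjusted p = 0.961), and it turned to -0.26 ± 0.19 without wild type vehicle replicate 3 (adjusted p = 0.534). A change of Nr0b2 was thus not established in either direction. In the Nr0b2 promoter (chr4:133553126-133553375, plus strand), shown because SHP closes the FXR loop, the capitals mark an E-box at -195 to -190, a motif that 6.02% of promoters held.
Nr0b2: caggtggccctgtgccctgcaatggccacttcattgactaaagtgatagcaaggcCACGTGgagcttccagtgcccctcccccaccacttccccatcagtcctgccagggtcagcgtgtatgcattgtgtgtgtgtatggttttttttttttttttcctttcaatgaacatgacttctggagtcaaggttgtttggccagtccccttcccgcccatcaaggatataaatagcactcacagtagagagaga
That FXR inverted repeat was in none of the 6 member promoters and in 0.00609% of all promoters. In the Nr1h4 promoter the D-box was found at -131 to -124, and 5.43% of promoters held it.

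**Figure D2:**
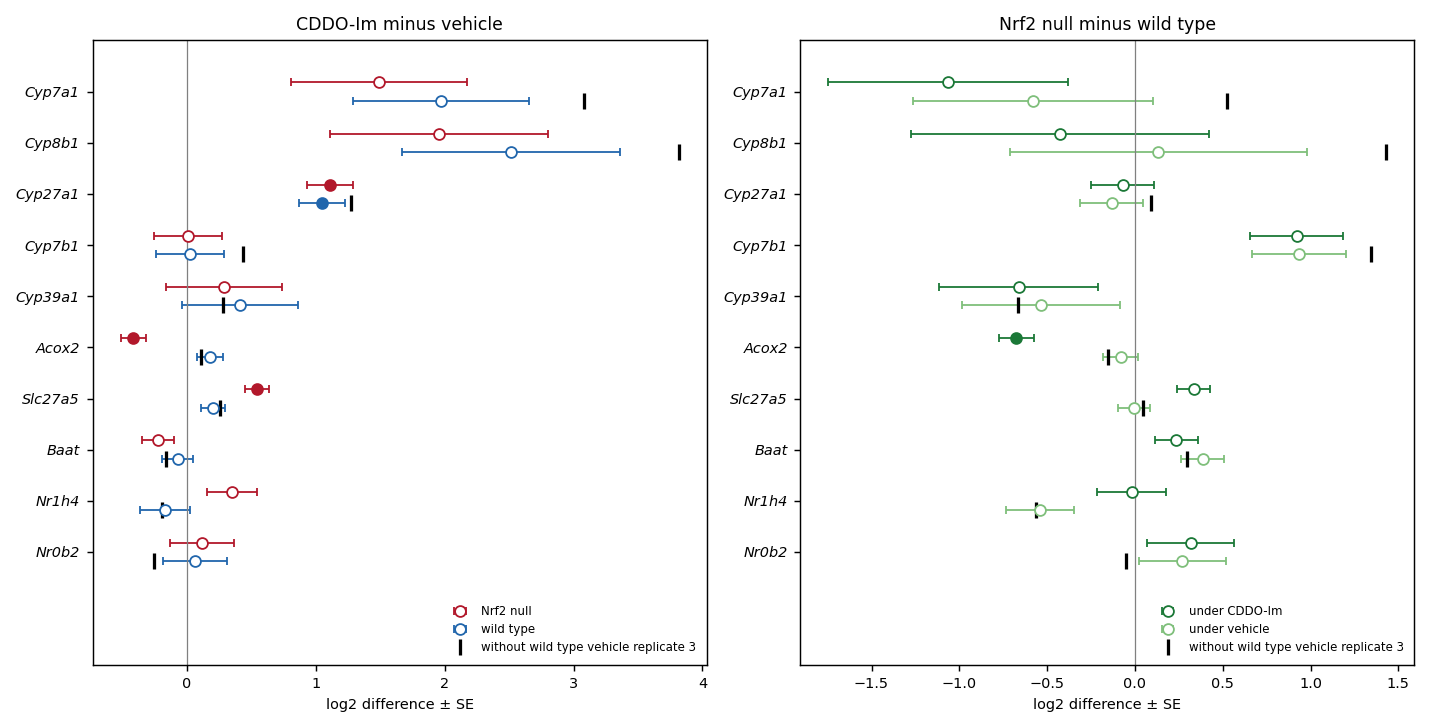
Log2 differences with SE (horizontal axis) for the 10 members, CDDO-Im minus vehicle on the left, in Nrf2 null livers (red) above wild type livers (blue), and Nrf2 null minus wild type on the right, under CDDO-Im (dark green) above vehicle (light green). Filled points passed at an adjusted p under 0.05 and open points did not, and black ticks give the value without wild type vehicle replicate 3. The ticks lie farthest from their points for Cyp7a1 and Cyp8b1, at 3.08 and 3.82 on the left.

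Between genotypes few members were called. Under CDDO-Im 1 of 10 members was called, Acox2, which was lower in Nrf2 null livers, against 1.45% of all genes, 0.824% lower. There 4 members had groups that did not overlap, against 16.8% of all genes. Cyp7b1 and Slc27a5 were higher in Nrf2 null livers, against 9.01% of genes in that direction, and Cyp7a1 and Acox2 lower, against 7.82%. Under vehicle limma called none of 10 members, where it called 0.390% of all genes. At an unadjusted p under 0.05, 3 members were counted under vehicle, Cyp7b1, Baat and Nr1h4, where 13.2% of all genes were. Those 3 were also the members whose vehicle groups did not overlap on the main probe set, against 17.0% of all genes, 8.55% higher and 8.49% lower in Nrf2 null livers. On the second Baat probe set the vehicle groups overlapped. In the treatment comparisons, groups did not overlap on the main probe set for 6 members in Nrf2 null livers, against 23.1% of all genes, and for 3 in wild type livers, against 16.6%. In Nrf2 null livers 4 of the 6 were higher, against 11.6% of genes, and 2 lower, against 11.4%, and in wild type livers all 3 were higher, against 8.42%. The interaction called none of 10 members, against 0.137% of all genes, and 2 members, Acox2 and Slc27a5, were under an unadjusted 0.05, against 7.10%. Without wild type vehicle replicate 3 the members called between genotypes were 3 under CDDO-Im, where 2.55% of all genes were called, and 1 under vehicle, where 1.20% were. The interaction then still called none, with Cyp7a1 at -1.59 ± 0.35 (adjusted p = 0.128) and Cyp8b1 at -1.86 ± 0.58 (adjusted p = 0.366).

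The genes whose pattern over the 12 arrays was most like that of the 3 widest-ranging members were found by the root mean square difference of centred log2 values. For Cyp7a1, which itself varied by 1.27 about its mean, they were Aox3 at 0.54, Ugt2b36 at 0.61 and Etnppl at 0.61. For Cyp8b1, which varied by 1.53, they were Cyp7a1 at 0.70, Cyp2c54 at 0.77 and Keg1 at 0.77. For Cyp27a1, which varied by 0.58, they were Ces1c at 0.21, BC052688 at 0.22 and Gch1 at 0.23. The median over all genes was 1.27 for Cyp7a1, 1.52 for Cyp8b1 and 0.59 for Cyp27a1. These likenesses share the same 12 arrays, wild type vehicle replicate 3 included, and carry no test.

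Other genes of the pathway were taken from 6 lists, of which 85 of 96 genes were measured. Among 15 other enzymes and carriers of synthesis, 7 rose in Nrf2 null livers under CDDO-Im and none fell, with a list median of 0.27. In wild type livers none of the 15 was called, at a list median of 0.21. Over all genes 5.90% were called in Nrf2 null livers and 1.82% in wild type livers. The genes that rose in Nrf2 null livers included Akr1c6, a steroid dehydrogenase, by 1.38 ± 0.25 log2 (limma adjusted p = 0.0126). Slc27a2, an acyl-CoA synthetase, rose by 0.56 ± 0.10 (adjusted p = 0.0126), Stard5, a sterol carrier, by 0.60 ± 0.12 (adjusted p = 0.017), and Abcd3, a peroxisomal transporter, by 0.87 ± 0.18 (adjusted p = 0.02). Akr1c6, Slc27a2, Stard5 and Abcd3 each had their lowest group mean in untreated Nrf2 null livers. That of Slc27a2 was 12.93 there, against 13.37 in both wild type groups. Akr1c6 in wild type livers differed by 0.92 ± 0.25 (adjusted p = 0.0943), and the effects differed by 0.46 ± 0.35 between genotypes (adjusted p = 0.869). With wild type vehicle replicate 3 left out, 3 of the 15 were called higher in wild type livers: Akr1d1, a steroid reductase, at 1.14 ± 0.17 (adjusted p = 0.00147), Akr1c6 at 1.22 ± 0.21 (adjusted p = 0.0031) and Abcd3 at 0.73 ± 0.15 (adjusted p = 0.0119). The share of all genes called was then 7.61% in wild type livers and 8.88% in Nrf2 null livers. Cyp2c70, the mouse enzyme that makes muricholic acids, was then called lower, at -1.52 ± 0.16 in wild type livers (adjusted p = 0.000123) and -0.57 ± 0.145 in Nrf2 null livers (adjusted p = 0.03). Of the 7 calls in Nrf2 null livers, 0 held in all 12 refits without 1 array, and Nrf2 null CDDO-Im replicate 3 was among the arrays whose absence ended each of them. Without that array the calls over all genes in this comparison fell from 1074 to 97, so the loss was not particular to these genes. Amacr, the racemase of the side chain, was the 1 gene called between treated genotypes, where 1.45% of all genes were called. It was higher by 1.74 ± 0.36 in Nrf2 null livers (limma adjusted p = 0.0367), and that call was lost in 9 of the 12 refits (adjusted p up to 0.151). Akr1d1 was called between genotypes as well when wild type vehicle replicate 3 was left out, higher in Nrf2 null livers by 1.18 ± 0.15 under CDDO-Im (adjusted p = 0.00138) and by 0.86 ± 0.17 under vehicle (adjusted p = 0.034).

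Among bile acid transporters of the hepatocyte more were called higher than lower in both genotypes. In Nrf2 null livers 7 of 18 rose under CDDO-Im and none fell, and in wild type livers 5 of 18 rose and none fell. Over all genes 5.90% were called in Nrf2 null livers, 3.58% higher, and 1.82% in wild type livers, 0.978% higher. Slco1a1, an uptake carrier of the sinusoidal membrane, read 11.62, 11.96 and 11.99 in Nrf2 null CDDO-Im livers, against 10.64, 10.63 and 10.88 in Nrf2 null vehicle livers. It rose by 1.14 ± 0.18 log2 there (limma adjusted p = 0.00958). The wild type difference was 0.57 ± 0.18 (adjusted p = 0.162), and 0.81 ± 0.14 without wild type vehicle replicate 3, which passed (adjusted p = 0.00292). The effects differed by 0.57 ± 0.26 between genotypes (adjusted p = 0.704). Abcb11, the bile salt export pump and a known FXR target, rose by 0.95 ± 0.19 (adjusted p = 0.017), Slco1b2 by 0.62 ± 0.14 (adjusted p = 0.0242) and Slc10a1, the main uptake carrier, by 0.73 ± 0.17 (adjusted p = 0.0295). In wild type livers Abcb11 differed by 0.29 ± 0.19 (adjusted p = 0.596), and the effects differed by 0.67 ± 0.27 (adjusted p = 0.634). Each of the 7 genes called in Nrf2 null livers had its lowest group mean in untreated Nrf2 null livers. Slco1b2 averaged 11.10 there, against 11.72 in treated Nrf2 null livers and 11.66 in untreated wild type livers. No transporter was called between vehicle groups with all arrays. As with the enzymes, 0 of these 7 calls held in all 12 refits, and Nrf2 null CDDO-Im replicate 3 was among the arrays whose absence ended each of them. The refit without that array called 97 genes in all, against 1074 with all arrays.

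Of the transporters, Abcc3 differed most between treated genotypes. Abcc3, which moves bile acid conjugates back into blood, read 7.24, 7.46 and 7.72 in Nrf2 null CDDO-Im livers and 7.23, 6.97 and 7.26 in Nrf2 null vehicle livers. Wild type arrays gave 11.38, 12.02 and 12.09 under CDDO-Im, against 8.58, 8.10 and 9.86 under vehicle. It rose by 2.98 ± 0.35 log2 in wild type livers (limma adjusted p = 0.000941), and the difference in Nrf2 null livers was 0.32 ± 0.35 (adjusted p = 0.702). Under CDDO-Im it was lower in Nrf2 null than in wild type livers, by -4.36 ± 0.35 (adjusted p = 4.85e-05), while the interaction of -2.66 ± 0.50 did not pass with all arrays (adjusted p = 0.118). That interaction was -3.17 ± 0.29 without wild type vehicle replicate 3 and then passed (adjusted p = 0.000314), as did that of Ephx1, at -1.85 ± 0.29 (adjusted p = 0.0219). Abcc4, another exporter to blood, rose by 0.88 ± 0.16 in wild type livers (adjusted p = 0.0159) and was lower in treated Nrf2 null than in treated wild type livers by -1.06 ± 0.16 (adjusted p = 0.00484). Abcc2, the canalicular conjugate pump, rose by 0.81 ± 0.14 in wild type livers (adjusted p = 0.0145). Ephx1, an epoxide hydrolase that was listed because it has been described as a bile acid carrier, rose by 2.63 ± 0.34 in wild type livers (adjusted p = 0.00191) and by 1.26 ± 0.34 in Nrf2 null livers (adjusted p = 0.0499). The calls of Abcc3 and Ephx1 in wild type livers held in all 12 refits, while those of Abcc2 were lost in 4 (adjusted p up to 0.0793), of Abcc4 in 3 (adjusted p up to 0.0869) and of Abcg5, the fifth gene called there, in 9 (adjusted p up to 0.204). The Ephx1 call in Nrf2 null livers was lost in 8 (adjusted p up to 0.17). Between treated genotypes the calls of Abcc3, Abcc4 and Ephx1 held in all 12. Between vehicle groups Abcc3 was not called with all arrays, and it was called lower in Nrf2 null livers when wild type vehicle replicate 3 was left out, at -1.19 ± 0.22 (adjusted p = 0.0261). With wild type vehicle replicate 3 left out, 8 of the 18 transporters were called higher and 1 lower in wild type livers. Over all genes 7.61% were then called there. The gene called lower was Atp8b1, a canalicular phospholipid flippase, at -1.715 ± 0.23 in wild type livers (adjusted p = 0.00061), and at -1.185 ± 0.20 in Nrf2 null livers (adjusted p = 0.00362). Slc22a7, an organic anion carrier, was the transporter called higher in Nrf2 null than in wild type livers under CDDO-Im, by 1.12 ± 0.23 (adjusted p = 0.0332), a call lost in 5 of the 12 refits (adjusted p up to 0.137).

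**Figure D3:**
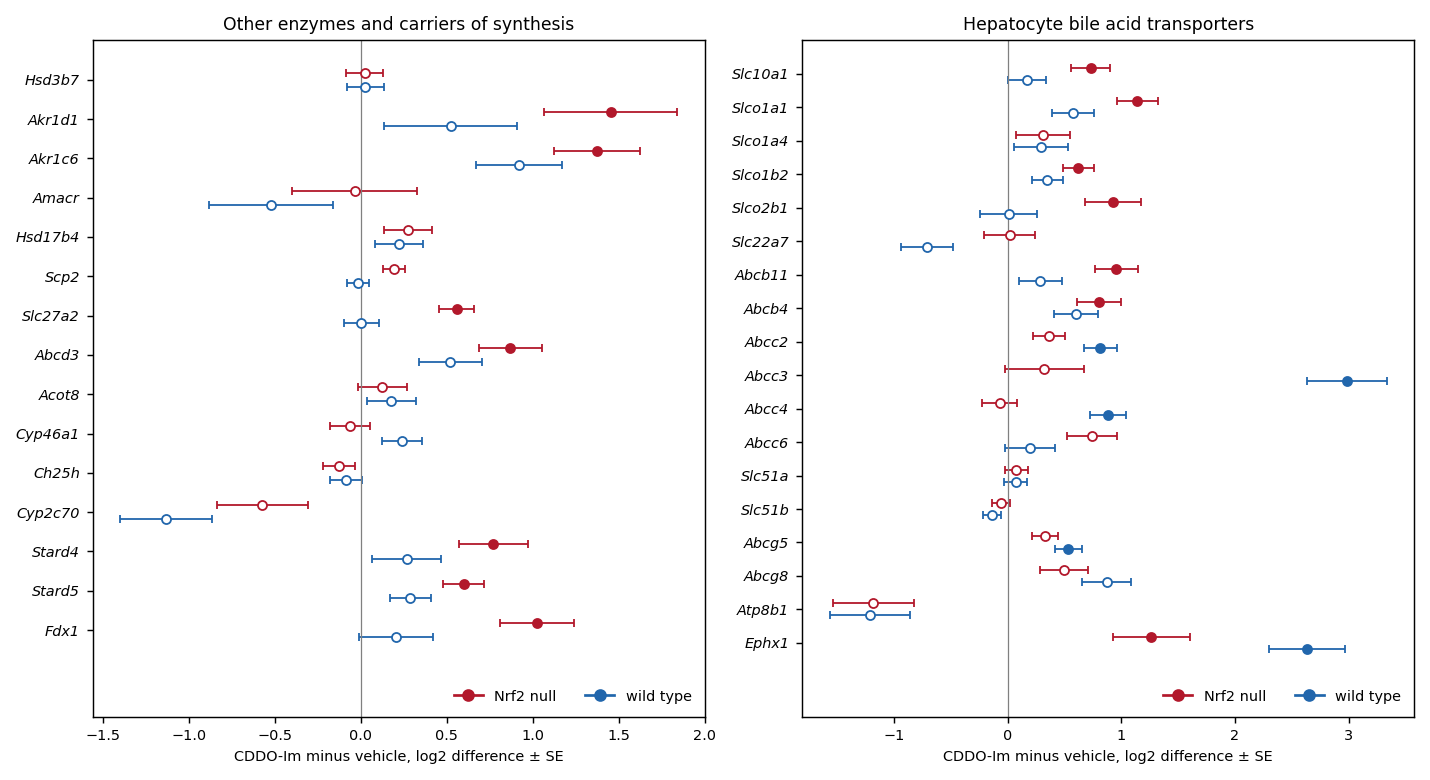
Log2 differences, CDDO-Im minus vehicle, with SE (horizontal axis) for 15 other enzymes and carriers of bile acid synthesis on the left and 18 hepatocyte transporters on the right, in Nrf2 null livers (red) above wild type livers (blue). Filled points passed at an adjusted p under 0.05 and open points did not. On the left 7 red and no blue points are filled, and on the right the blue points of Abcc3 and Ephx1 lie farthest to the right, at 2.98 and 2.63.

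Partners and signals of FXR were called for 2 of 19 genes in Nrf2 null livers, where 5.90% of all genes were, and for 1 of 19 in wild type livers, where 1.82% were. Klb, the coreceptor for Fgf15, rose by 0.58 ± 0.15 log2 in Nrf2 null livers (limma adjusted p = 0.0469), and Fgfr4, its receptor, fell there by 0.44 ± 0.11 (adjusted p = 0.0416). In wild type livers Mafg, a small Maf protein that FXR induces and that pairs with Nrf2 on DNA, rose by 0.58 ± 0.11 (adjusted p = 0.0244). Mafg was lower in treated Nrf2 null than in treated wild type livers, by -0.52 ± 0.11 (adjusted p = 0.0453). The Fgfr4 call was lost in 10 of the 12 refits, that of Klb in 9, and those of Mafg in 4 for wild type livers and in 8 between treated genotypes. Fgf15 itself read 5.45 to 5.89 over the arrays and lay below the array median on 9 of 12.

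Among 7 other receptors, Ppara, a fatty acid receptor, rose in Nrf2 null livers by 1.22 ± 0.20 log2 (limma adjusted p = 0.0106) and Nr1i3, the xenobiotic receptor CAR, by 0.77 ± 0.17 (adjusted p = 0.0264). Those 2 were called there, where 5.90% of all genes were, and none of the 7 was called in wild type livers, where 1.82% were. The Nr1i3 call was lost in 4 of the 12 refits (adjusted p up to 0.114) and that of Ppara in 1 (adjusted p = 0.0546). Nr1i3 in wild type livers differed by 0.73 ± 0.17 (adjusted p = 0.0589). When wild type vehicle replicate 3 was left out it was called there too, at 0.91 ± 0.16 (adjusted p = 0.00374), and it was called lower in treated Nrf2 null than in treated wild type livers, by -0.73 ± 0.14 (adjusted p = 0.0193). Ppara read 10.60, 10.58 and 11.05 in Nrf2 null CDDO-Im livers and 9.03, 9.61 and 9.93 in Nrf2 null vehicle livers. Readings in wild type livers were 10.30, 10.73 and 10.48 under CDDO-Im, against 10.76, 10.59 and 10.59 under vehicle. Untreated Nrf2 null livers were thus the low group, and Ppara was called lower in them than in untreated wild type livers by -1.13 ± 0.20 (adjusted p = 0.0414). That call was lost in 7 of the 12 refits (adjusted p up to 0.158) and without both arrays that carried acinar transcripts (adjusted p = 0.0775). Of 12 circadian factors 2 rose in Nrf2 null livers, Dbp by 1.04 ± 0.26 (adjusted p = 0.0414) and Hlf by 0.53 ± 0.11 (adjusted p = 0.0171), where 5.90% of all genes were called. The Dbp call was lost in 8 of the 12 refits (adjusted p up to 0.162) and without both arrays that carried acinar transcripts (adjusted p = 0.063), and the Hlf call in 4 refits (adjusted p up to 0.0798). Both encode PAR-domain activators, and Dbp is known to act on Cyp7a1. For both, untreated Nrf2 null livers had the lowest group mean. Dbp averaged 10.73 in treated and 9.69 in untreated Nrf2 null livers, against 10.58 in treated and 10.63 in untreated wild type livers. Hlf averaged 8.78 and 8.25, against 8.51 and 8.50, in the same order. None of the 12 was called in wild type livers, and the interaction was 1.09 ± 0.37 for Dbp (adjusted p = 0.506) and 0.52 ± 0.15 for Hlf (adjusted p = 0.383).

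FXR targets outside bile acid synthesis, most of them known as such from human cells, went both ways. Of 14 genes 1 rose and 5 fell in Nrf2 null livers, and 2 rose and 5 fell in wild type livers. Over all genes 3.58% were called higher and 2.32% lower in Nrf2 null livers. In wild type livers 1.82% were called, 0.978% higher. Ugt2b1, a glucuronosyltransferase, rose by 1.78 ± 0.20 log2 in Nrf2 null livers (limma adjusted p = 0.00405) and by 2.00 ± 0.20 in wild type livers (adjusted p = 0.000309), and it held in all 12 refits in both. Between treated genotypes Ugt2b1 was not called with all arrays, and it was called lower in Nrf2 null livers when wild type vehicle replicate 3 was left out, at -0.68 ± 0.12 (adjusted p = 0.00989). The 5 that fell were Sdc1, Fgg, Apoc2, Kng1 and Fgb in both genotypes. Each of those 5 calls was lost in 3 to 8 of the 12 refits in Nrf2 null livers. The wild type calls of Apoc2 and Fgg held in all 12, and those of Sdc1, Fgb and Kng1 were lost in 3, 3 and 4. Sdc1, a cell surface proteoglycan, fell by 0.69 ± 0.14 in Nrf2 null livers and by 0.84 ± 0.14 in wild type livers (adjusted p = 0.018 and 0.0112). Apoc2, the activator of lipoprotein lipase, fell by 0.49 ± 0.11 in Nrf2 null livers and by 0.71 ± 0.11 in wild type livers (adjusted p = 0.0238 and 0.00591). Osgin1, a stress-induced growth inhibitor, read 8.16, 8.42 and 8.74 in Nrf2 null CDDO-Im livers and 8.80, 8.88 and 8.98 in Nrf2 null vehicle livers. Its wild type values were 9.82, 9.94 and 9.62 under CDDO-Im, against 8.92, 8.42 and 8.84 under vehicle. It rose by 1.07 ± 0.16 in wild type livers (adjusted p = 0.00498), and it was the listed pathway gene that passed the interaction test, at -1.52 ± 0.22 (adjusted p = 0.0216). That interaction missed the threshold in 5 of the 12 refits (adjusted p up to 0.0853). Abcb11 and Nr0b2, both classic FXR targets in liver, are described above: the first rose in Nrf2 null livers and the other was called in no comparison.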

How the data were processed

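The authors deposited log2 intensities in 1 table of 12 arrays. RMA, without a version, is the tool in the submitters' processing notes. Array medians were 5.77 to 5.83, and no further scaling was applied. Precision is limited by the number of arrays. Of 45101 probe sets, 64 were controls, 34945 named 1 gene, 932 several and 9160 none. An Entrez id matched for 34741 of these, with 0 symbols altered. Each of 18193 genes took its brightest single-gene probe set by mean, with no filter on dim ones.

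Groups came from the labels. Software was limma 3.58.1, statmod 1.5.0 and R 4.3.3. The model held a mean for each of 4 groups over the 12 arrays, was tested on simulated data, and gave 5 two-sided contrasts. Residual degrees of freedom were 8, with 3.8078 from the prior. Calls needed an adjusted p under 0.05, by Benjamini-Hochberg over every gene. Errors of differences are standard errors, intervals are 95%, and errors of means are SD. With 3 against 3 arrays an exact permutation test cannot go below 0.1, so none was used.

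The members, 6 pathway lists and 5 marker lists (41 of 47 genes measured) were chosen with earlier results of these data known. Named were the 10 members and, per list and comparison, up to 4 called genes with the smallest adjusted p, plus for 3 members the 3 most alike genes. The acinar marker genes, Fgf15, Nfe2l2 and the hepatocyte markers are named as checks. Promoters of 250 bases came from RefSeq's table for GRCm38.p6. Alternatives left out each array, changed the scaling, the probe set, the groups fitted, the array weights, the variance prior and the threshold. Counts of list genes without wild type vehicle replicate 3, and the genes named with them, were added after seeing the data.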

Additional observations from a re-analysis of the deposited data

Results flagged for a closer look

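Acox2 was noted because its treated and untreated livers separated in opposite directions in the genotypes. Every Nrf2 null CDDO-Im liver lay below every Nrf2 null vehicle liver, and every wild type CDDO-Im liver lay above every wild type vehicle liver. The effect in Nrf2 null livers minus that in wild type livers was -0.59 ± 0.14 log2 (SE, limma adjusted p = 0.242), so the test of the difference did not pass. Without wild type vehicle replicate 3 it was -0.52 ± 0.14 (adjusted p = 0.254), and without both arrays that carried acinar transcripts -0.47 ± 0.15 (adjusted p = 0.477).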

How the results depend on the processing

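Counts follow as members called and, after them, all genes called. With all arrays they were 3 and 1074 for CDDO-Im in Nrf2 null livers, 1 and 332 for CDDO-Im in wild type livers, 1 and 263 for Nrf2 null against wild type under CDDO-Im, 0 and 71 under vehicle, and 0 and 25 for the interaction. Leaving out 1 array gave 1 to 5 and 97 to 1615, 0 to 3 and 104 to 1385, 1 to 3 and 151 to 464, 0 to 1 and 19 to 219, and 0 and 15 to 46, in that order. The highest gene counts were without wild type vehicle replicate 3 in all 5 comparisons, as were the highest member counts in the first 4. The count of 97 was without Nrf2 null CDDO-Im replicate 3. Without both arrays with acinar transcripts, the wild type effect gave 3 and 1293, Nrf2 null against wild type 2 and 411 under CDDO-Im and 1 and 117 under vehicle, and the interaction 39 genes. Array weights gave 1897 genes in Nrf2 null livers, 3 members and 2023 genes in wild type livers, 2 and 1477 between vehicle groups, and 89 for the interaction. Fitting the compared groups alone gave 0 and 110 in wild type livers, 2 members between treated genotypes, and 18 genes between vehicle groups. Testing every probe set gave 549 genes in wild type livers, 467 between treated genotypes and 57 for the interaction. The second probe set called 0 members in wild type livers, where Cyp27a1's is dim. Median centring gave 40 genes between vehicle groups. A 1.5-fold minimum called 0 members in the 3 comparisons that had any, and 1, 36, 28, 8 and 10 genes over the 5 comparisons. A threshold of 0.01 called 1 and 97 in Nrf2 null livers, 0 and 109 in wild type livers, 123 genes between treated genotypes, 16 between vehicle groups and 15 for the interaction. With the replicate block the counts were 3 and 1000, 1 and 323, 1 and 231, 0 and 80, and 0 and 20. Over 18 same-number pairs of arrays, deviations from group means correlated at -0.30 to 0.28, with 4 pairs over 0.1, so the numbers were not taken to pair samples. No called member changed direction in any alternative run. Apart from the changes given by construction (threshold, arrays or groups left out), the cause was not tested. Precision is limited by 3 arrays a group.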
